A study of Saccharomyces cerevisiae with 6 samples.

Results

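ITS1, the internal transcribed spacer 1 of the yeast 35S rRNA gene, is the stretch transcribed between 18S and 5.8S. Its members here are all positions from 2501 to 2861 of the gene, 361 of the 6858 positions measured, chosen by coordinate alone. In the copy that the deposited values list (ITS1-2, YNCL0024C, inside RDN37-2), they span chromosome XII 464709 to 465069 (R64 assembly, transcribed from the minus strand). The other reference copy, ITS1-1 (YNCL0015C), runs from 455572 to 455932. The 2 copies have the same bases, and the values add their reads together.

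Pol I occupancy was measured by NET-seq, which sequences the 3′ ends of nascent transcripts held by immunoprecipitated polymerase, in 3 WT libraries and 3 libraries of *spt4△*, a strain without the elongation factor Spt4. The study describes them as biological triplicates and asked how loss of Spt4 changes where Pol I sits on the rDNA. Both strains carried the alleles can1-100, leu2-3, 112, trp1-1, ura3-1, ade2-1 and his3-11,15, were grown at 30 °C to an OD600 of 0.3, and were precipitated through an HA tag on Rpa135, the second largest Pol I subunit. They differed by more than SPT4. In WT the tag was RPA135-(HA)3-(His)7::TRP1mx6 and the chromosomal RPA190 gene, which encodes the largest subunit, was deleted (rpa190Δ::HIS3Mx6) and supplied on the plasmid pRS315-RPA190, whereas in *spt4△* the tag was RPA135-(HA)3-(his)7::URA3mx6, SPT4 was replaced (spt4△::HIS3) and no plasmid is listed, so these differences and the loss of Spt4 cannot be told apart. The deletion of SPT4 itself was not checked, since the values cover the 35S gene only.

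The 35S transcript carries the small-subunit rRNA (18S) ahead of the large-subunit rRNAs (5.8S and 25S), and ITS1 is the spacer that keeps them apart. It is removed during ribosome assembly. Cleavage inside ITS1 at the sites called A2 and A3, the latter by the RNase MRP complex, separates the 2 subunit pathways. Further processing then makes the 3′ end of 18S and the 5′ end of 5.8S. A NET-seq read in ITS1 is taken to end at the last nucleotide that the polymerase had added. A high position is one where transcript ends were found often. Whether some of these ends came from cleaved or mature rRNA was not tested. The sites A2 and A3 were not located in the sequence, so distances from the peaks to them were not computed.

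ITS1 was richer in A and U than the regions beside it. Its bases were 30.5% A, 15.8% C, 20.2% G and 33.5% U, an A+U content of 64.0%, against 55.2% in 18S, 53.8% in 5.8S, 61.2% in ITS2 and 58.1% in ETS1. The sequences below are shown because the results turn on where transcripts ended within them. Each is written 5′ to 3′ as RNA, with 20 bases before and 15 after the last transcript nucleotide, which is the capital letter. They were read from the deposited table and match the R64 sequence at every base.
Position 2498, chrXII:465057-465092, the last 18S position with reads: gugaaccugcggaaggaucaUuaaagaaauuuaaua
Position 2571, chrXII:464984-465019, a WT peak: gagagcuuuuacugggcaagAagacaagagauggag
Position 2589, chrXII:464966-465001, a site of *spt4△* gain: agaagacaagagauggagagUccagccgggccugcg
Position 2617, chrXII:464938-464973, a WT peak: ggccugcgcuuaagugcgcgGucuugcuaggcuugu
Position 2659, chrXII:464896-464931, the highest WT position: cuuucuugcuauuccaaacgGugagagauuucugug
Position 2667, chrXII:464888-464923, the largest gain in *spt4△*: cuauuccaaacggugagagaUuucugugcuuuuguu
Position 2710, chrXII:464845-464880, a peak of *spt4△*: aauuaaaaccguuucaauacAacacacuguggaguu
Position 2760, chrXII:464795-464830, a WT peak: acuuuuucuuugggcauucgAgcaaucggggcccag
The lines for 2659 and 2667 overlap. The WT peak ended on the last G of aaacgg, and the *spt4△* gain ended 8 bases later on the first U after gagaga.

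Depth differed strongly between the strains. Up to the terminator T1 the WT libraries had 10022839, 5544361 and 8812581 reads, and the *spt4△* libraries 482133, 438811 and 307249, a 20.1-fold difference of medians. In ITS1 this left 70841, 41324 and 80976 reads in WT and 4384, 4496 and 2947 in *spt4△*. The median ITS1 position had 103, 60 and 124 reads in WT but only 6, 7 and 4 in *spt4△*. In *spt4△*, 3 reads were worth 6.22, 6.84 and 9.76 rpm (reads per 1000000 reads up to T1), and in each library at least 76 of the 361 positions lay under that level. In WT, 3 reads were worth 0.299 to 0.541 rpm. Levels below about 10 rpm were therefore not resolved in *spt4△*, and depth and strain cannot be told apart because every *spt4△* library was shallow. Position 2501, the first of ITS1, had no read in any of the 6 libraries, which left 360 positions to test.

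ITS1 was a trough of occupancy between mature regions in both strains. Mean occupancy per ITS1 position was 19.6, 20.6 and 25.5 rpm in WT (21.9 ± 3.13, SD, n = 3) and 25.2, 28.4 and 26.6 rpm in *spt4△* (26.7 ± 1.60). WT replicate 3 lay within the *spt4△* range, so the strains overlapped. The 18S region averaged 164 ± 2.26 rpm in WT and 177 ± 2.39 in *spt4△*, and 5.8S averaged 244 ± 7.97 and 186 ± 5.16. Occupancy in 18S was thus 8.28, 8.07 and 6.43 times that in ITS1 in WT, and 6.92, 6.30 and 6.71 times in *spt4△*. The drop from 18S did not differ beyond the spread of libraries (log2 difference of ITS1 over 18S 0.18, two-sided exact permutation p = 0.3, adjusted over 5 ratios 0.3, n = 3 per strain). With only the last 100 positions of 18S and the first 100 of ITS1, the sign of this difference turned, to −0.098 (exact p = 0.7).

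By mean occupancy, the rise into 5.8S was steeper in every WT library than in any *spt4△* library. Occupancy in 5.8S was 12.7, 12.04 and 9.22 times that in ITS1 in WT, and 7.17, 6.65 and 7.16 times in *spt4△*, with no overlap. The log2 difference was −0.68 (exact permutation p = 0.1, adjusted 0.167), and 0.1 is the smallest p that 3 against 3 libraries allow. With medians over positions it was −0.40 (exact permutation p = 0.2), so the separation rested partly on high positions. Values are shares of a library, so more occupancy in ITS1 and less in 5.8S cannot be told apart from such a ratio.

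ITS1 had the lowest mean occupancy of the 3 spacers compared, in all 6 libraries. Its mean occupancy was 0.471, 0.504 and 0.529 times that of ITS2, the spacer between 5.8S and 25S, in WT and 0.651, 0.699 and 0.723 times in *spt4△* (log2 difference 0.46, exact permutation p = 0.1, adjusted 0.167). Against ETS1, the spacer at the 5′ end, it was 0.522, 0.518 and 0.508 times in WT and 0.366, 0.400 and 0.366 times in *spt4△* (log2 difference −0.45, exact permutation p = 0.1, adjusted 0.167). Neither pair of ranges overlapped. ITS1 thus had a higher share relative to ITS2 and a lower share relative to ETS1 in every *spt4△* library than in any WT library. The difference from ITS2 rested on high positions, since with medians over positions it was 0.059 (exact p = 0.8).

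**Figure D1:**
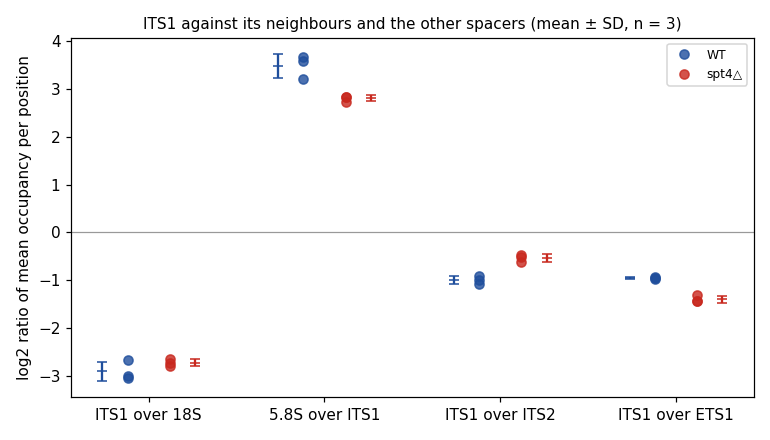
Log2 ratios of mean occupancy per position (vertical axis) for ITS1 over 18S, 5.8S over ITS1, ITS1 over ITS2 and ITS1 over ETS1, with a dot per library and the mean ± SD of 3 libraries per strain beside the dots. The WT and *spt4△* dots overlap for ITS1 over 18S and are apart in the other ratios, with differences of −0.68, 0.46 and −0.45.

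At the 18S border, occupancy fell over a few bases. Position 2498, 2 bases inside mature 18S, held 2269, 3969 and 2415 rpm in WT and 3381, 3813 and 3551 rpm in *spt4△*. These overlapped (log2 fold change 0.36, limma adjusted p = 0.268). Positions 2499, 2500 and 2501 had no read in any library, and positions 2502 to 2506 averaged 19.5, 25.6 and 23.0 rpm in WT and 15.8, 32.4 and 24.1 rpm in *spt4△*. The 18S stretch from 2401 to 2493 averaged 88.1 ± 4.65 rpm in WT and 97.1 ± 2.66 in *spt4△*, so the peak at the end of 18S stood well above the body of 18S next to it.

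Within the first bases of ITS1 the strains differed by position. Position 2504 held 22.8, 31.6 and 33.8 rpm in WT and 6.22, 25.1 and 6.51 rpm in *spt4△* (log2 fold change −1.42, limma adjusted p = 0.0281), from 3, 11 and 2 reads in *spt4△* and with *spt4△* replicate 2 inside the WT range. The call held without *spt4△* replicate 2 (adjusted p = 0.00134) and was lost when any other library was left out (adjusted p from 0.0611 to 0.112). Position 2506, 2 bases on, went the other way, with 22.8, 32.8 and 29.7 rpm in WT and 49.8, 70.7 and 81.4 rpm in *spt4△* (log2 fold change 1.20). Positions 2502, 2503 and 2505 did not pass the test.

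At the other border the rise began inside 5.8S and not inside ITS1. The last 5 positions of ITS1 averaged 6.82 ± 0.335 rpm in WT and 4.62 ± 2.204 in *spt4△*, and the first 9 positions of 5.8S averaged 4.84 ± 0.932 and 6.96 ± 1.95. Positions 10 to 18 of 5.8S then averaged 148 ± 25.2 rpm in WT and 247 ± 8.24 in *spt4△*. The *spt4△* values at the last 5 ITS1 positions came from 0 to 5 reads each, and none of the 5 passed the test. The nearest was 2857 (log2 fold change −1.68, limma adjusted p = 0.122), which passed with a replicate block (0.0378) and without *spt4△* replicate 3 (0.0279). The last position, 2861, had 1.497, 2.71 and 2.72 rpm in WT and 0, 6.84 and 3.25 rpm in *spt4△* (log2 fold change −0.016, limma adjusted p = 0.986).

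**Figure D2:**
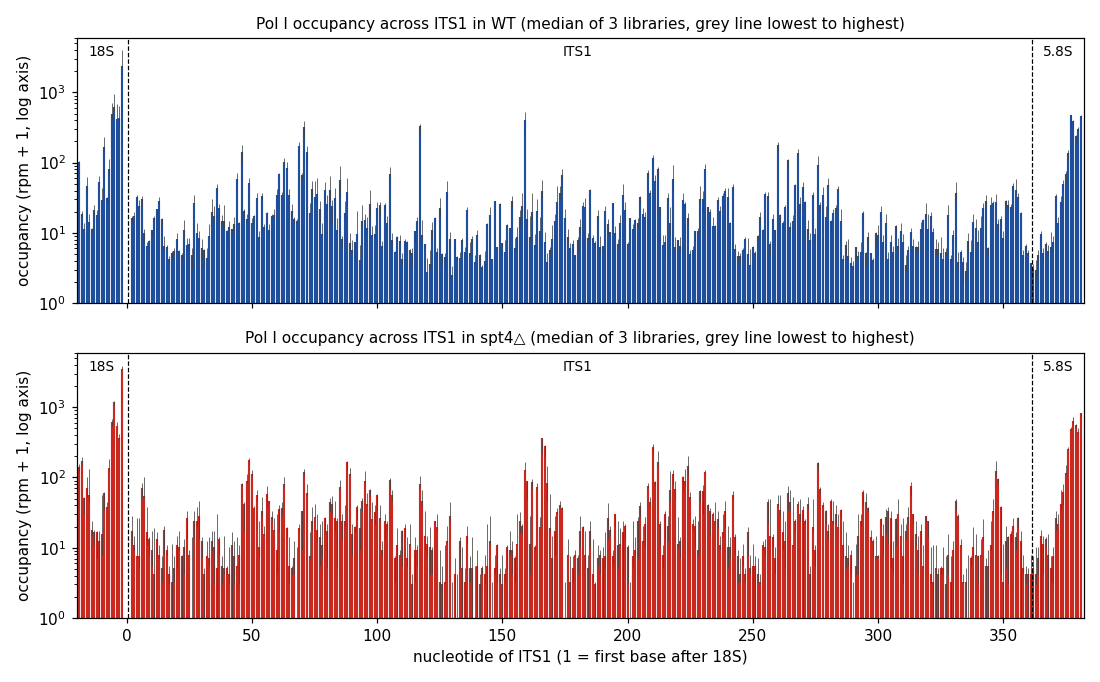
Median occupancy of 3 libraries per position (rpm + 1, log axis, so a position at 0 sits on the baseline) against the nucleotide of ITS1, for WT above and *spt4△* below, with 20 positions of 18S and of 5.8S on either side. Grey lines run from the lowest to the highest library. The trough between 18S and 5.8S is seen in both strains, with the highest WT position at nucleotide 159 and the highest *spt4△* position at nucleotide 166.

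Inside the trough, occupancy was concentrated at a few positions, and more so in WT. The 5 highest positions of each library held 16.8%, 17.7% and 18.05% of its ITS1 reads in WT and 10.8%, 12.97% and 13.3% in *spt4△*. The strain difference lay mostly in these top positions, since the 36 highest held 45.8% ± 0.440 in WT and 44.1% ± 1.07 in *spt4△*. The 5 positions with the highest median in WT were 2659, 2617, 2571, 2760 and 2569, and those in *spt4△* were 2666, 2667, 2710, 2549 and 2588. The lists share no position.

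All 5 WT peaks were lower in *spt4△*. They were chosen by their WT level, which favours this direction, so the shared direction is a description and not a test. Position 2659 (nucleotide 159 of ITS1) held 288, 408 and 522 rpm in WT and 122, 164 and 127 rpm in *spt4△*, with no overlap (log2 fold change −1.52, SE 0.20, limma adjusted p = 0.000116). Position 2617 (nucleotide 117) held 331, 263 and 353 rpm in WT and 80.9, 105 and 71.6 rpm in *spt4△* (log2 fold change −1.87, adjusted p = 9.41e-06). Position 2571 (nucleotide 71) held 227, 321 and 388 rpm in WT and 131, 107 and 120 rpm in *spt4△* (log2 fold change −1.35, adjusted p = 0.000138). At these 3 positions *spt4△* still had 22 to 72 reads per library, and it kept peaks there at a lower level. Position 2760 (nucleotide 260) held 175, 152 and 198 rpm in WT and 41.5, 38.7 and 55.3 rpm in *spt4△* (log2 fold change −1.94, adjusted p = 1.56e-05). Position 2569 (nucleotide 69), 2 bases before the peak at 2571, held 167, 174 and 197 rpm in WT but 20.7, 18.2 and 16.3 rpm in *spt4△* (log2 fold change −3.22, adjusted p = 8.93e-07). It was the largest fall of the named positions, and 2569 and 2571, so close together, did not change to the same extent.

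All 5 *spt4△* peaks were higher than in WT. These were chosen by their *spt4△* level, which likewise favours the direction seen. Position 2666 (nucleotide 166) held 30.0, 37.9 and 55.9 rpm in WT and 224, 360 and 361 rpm in *spt4△* (log2 fold change 2.91, SE 0.24, limma adjusted p = 6.76e-06). At position 2667 the levels were 6.29, 5.95 and 9.30 rpm in WT and 189, 294 and 280 rpm in *spt4△*, a 35.4-fold difference of means (log2 fold change 4.96, SE 0.26, adjusted p = 2.61e-07). Position 2668 followed, with 2.89, 1.98 and 4.199 rpm in WT and 143, 82.0 and 45.6 rpm in *spt4△* (log2 fold change 4.39, adjusted p = 1.72e-05). These 3 adjacent positions lie 7 to 9 bases downstream of the WT peak at 2659. In WT they were a shallow shoulder, and 2667 and 2668 lay below the median ITS1 position of each WT library, while in *spt4△* they formed the highest group of ITS1.

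The remaining *spt4△* peaks were less changed. Position 2710 (nucleotide 210) was already high in WT, at 96.2, 115 and 127 rpm, and held 270, 296 and 212 rpm in *spt4△* (log2 fold change 1.19, limma adjusted p = 0.00013). Position 2549 (nucleotide 49) held 59.9, 50.5 and 49.5 rpm in WT and 158, 178 and 189 rpm in *spt4△* (log2 fold change 1.70, adjusted p = 1.18e-05). Position 2588 (nucleotide 88) held 23.7, 37.0 and 59.5 rpm in WT and 122, 166 and 169 rpm in *spt4△* (log2 fold change 1.98, adjusted p = 0.000247). Its neighbour 2589 changed more, from 4.29, 6.13 and 9.08 rpm to 135, 105 and 111 rpm (log2 fold change 4.01, adjusted p = 3.76e-06). Here again a pair of adjacent positions gained together, and the gain lay 17 and 18 bases downstream of the WT peak at 2571.

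The other large rises were at single U positions nearly empty in WT. Position 2725 (nucleotide 225) held 3.99, 4.69 and 3.97 rpm in WT and 60.2, 52.4 and 48.8 rpm in *spt4△* (log2 fold change 3.39, limma adjusted p = 9.12e-06). Position 2795 (nucleotide 295) held 2.39, 4.33 and 4.09 rpm in WT and 43.6, 59.3 and 35.8 rpm in *spt4△* (log2 fold change 3.36, adjusted p = 2.81e-05). All 5 of the largest rises (2667, 2668, 2589, 2725 and 2795) ended on U.

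The other large falls ended in few reads and are less precise. Position 2843 had 3, 2 and 0 reads in *spt4△* and 27.3, 22.0 and 33.0 rpm in WT, a ratio of *spt4△* to WT of 0.144 (95% exact interval 0.0468 to 0.339, counting error only). The ratio was 0.109 at 2544 (0.0471 to 0.216) and 0.155 at 2565 (0.0620 to 0.320), both on the same counting scale. Position 2536 was uneven, with 2, 13 and 0 reads in *spt4△* and a ratio of 0.290 (0.162 to 0.480). Its call (limma adjusted p = 0.0197) was lost without WT replicate 1 (0.072), without WT replicate 3 (0.0846) and in DESeq2 (0.137), whereas over all alternatives its adjusted p ran from 0.00115 to 0.137.

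**Figure D3:**
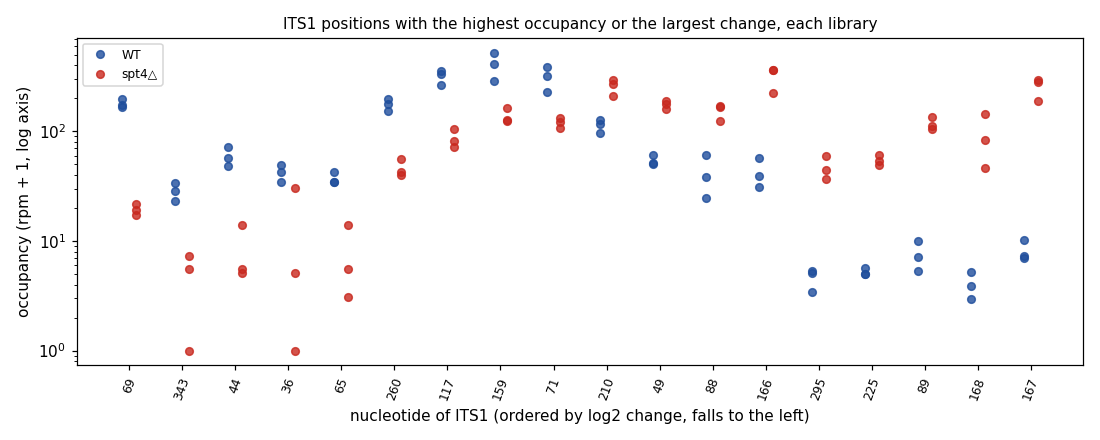
Occupancy of each library (rpm + 1, log axis) at the 18 ITS1 positions with the highest occupancy in a strain or the largest change, ordered by log2 change, with a dot per library (a library at 0 sits at 1). The WT dots lie above the *spt4△* dots at the left and below them at the right, and at nucleotide 167 the *spt4△* mean is 35.4 times the WT mean.

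Across the whole spacer, the share of positions called was no higher than in the gene as a whole. By limma at an adjusted p under 0.05, 24.7% of the 360 positions (89) showed a gain in *spt4△* and 15.6% (56) a loss, whereas over the gene 25.2% were higher and 21% lower. Libraries of the strains did not overlap at 99 positions on the higher side (27.5%, 30.7% over the gene) and 73 on the lower side (20.3%, 25.9% over the gene). The edgeR test on recovered reads called 148 positions, sharing 137 of the 145 limma calls, all 137 in the same direction. Without WT replicate 1 or WT replicate 3, the lower calls numbered 37 and 36. Shares over the gene are not given for the edgeR test or for these fits.

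Differences were larger in the spacers than in 18S and 5.8S, and depth moves with that. The median absolute log2 difference was 0.91 in ITS1, 0.46 outside it, 0.45 in 18S, 0.51 in 5.8S, 0.74 in ITS2 and 0.96 in ETS1. Differences of more than 1 on the log2 scale were found at 165 ITS1 positions (45.8%), against 48.6% of positions in ETS1, 38.5% in ITS2 and 12.1% in 18S. The median of called rises was 1.72 in ITS1, 1.75 in ETS1, 1.88 in ITS2 and 0.76 in 18S. The median of called falls was −1.57 in ITS1, −1.60 in ETS1, −1.25 in ITS2 and −0.70 in 18S. Large differences were thus shared by the 3 spacers. All 3 had fewer reads per position than 18S and 5.8S, and the part of read depth in these sizes was not tested. Calls within ITS1 also followed level. Among the 180 positions with a mean above the ITS1 median of 15.1 rpm, 105 (58.3%) were called, and among the other 180, 40 (22.2%).

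Rises and falls largely cancelled. The median log2 fold change over ITS1 was 0.077, and after scaling libraries by their median position it was −0.033. Rises and falls lay side by side along the spacer. Of 18 bins of 20 positions (the last of 21), which pool 48 to 517 reads per *spt4△* library, limma called 7 higher and 3 lower, while over the gene 32% of bins were higher and 31.7% lower. With the bins that were not called included, the sign of the difference turned 12 times between the 17 pairs of neighbouring bins.

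The largest rise and the largest fall among the bins lay at named peaks. Nucleotides 161 to 180, with 2666 to 2668, averaged 15.3, 14.4 and 20.5 rpm in WT and 49.5, 55.0 and 53.2 rpm in *spt4△* (log2 fold change 1.61, SE 0.15, limma adjusted p = 3.14e-07). The bin just before it, nucleotides 141 to 160 with the WT peak 2659, averaged 24.4, 31.4 and 39.7 rpm in WT and 18.7, 19.9 and 15.1 rpm in *spt4△* (log2 fold change −0.78, adjusted p = 0.0012). The same contrast of neighbours was seen upstream. Nucleotides 61 to 80, with 2569 and 2571, averaged 55.0, 64.1 and 76.4 rpm in WT, the highest WT bin, and 28.2, 29.5 and 26.4 rpm in *spt4△* (log2 fold change −1.18, adjusted p = 2.42e-06). Nucleotides 81 to 100, with 2588 and 2589, averaged 11.7, 17.6 and 26.3 rpm in WT and 46.5, 49.0 and 50.1 rpm in *spt4△* (log2 fold change 1.41, adjusted p = 3.4e-05). In both places a fall in a bin was thus followed by a rise in the next. The other bin called lower, nucleotides 241 to 260, was not followed by a rise. The next bin, nucleotides 261 to 280, had a log2 fold change of −0.038 (limma adjusted p = 0.805).

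Other bins changed as well. Nucleotides 301 to 320 rose from 8.90 ± 1.56 to 21.6 ± 3.23 rpm (log2 fold change 1.19, limma adjusted p = 3.3e-05), and nucleotides 241 to 260 fell from 20.3 ± 1.62 to 13.8 ± 2.09 rpm (log2 fold change −0.53, adjusted p = 0.00808). The highest *spt4△* bin was nucleotides 201 to 220, with 54.4 ± 4.05 rpm against 31.1 ± 4.61 in WT. Nucleotides 321 to 340 were the lowest in both strains, at 8.67 ± 1.97 and 8.23 ± 0.540 rpm.

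**Figure D4:**
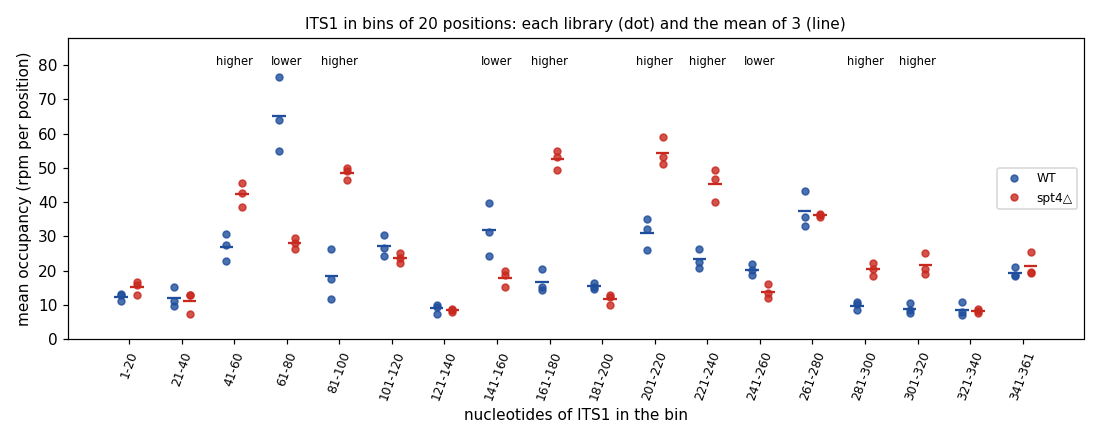
Mean occupancy (rpm per position, linear axis) in 18 consecutive bins of ITS1, with a dot per library and a line at the mean of 3 libraries for each strain, and the word higher or lower above bins called by limma at an adjusted p under 0.05. Bins that fall at nucleotides 61 to 80 and 141 to 160 are each followed by a bin that rises, and the bin called lower at nucleotides 241 to 260 is not. The bins just before the falls at nucleotides 61 to 80 and 241 to 260 are also called higher.

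The division of reads among the parts of ITS1 followed the bins. Positions 2501 to 2621 held 40.5%, 40.7% and 41.9% of ITS1 reads in WT and 34.8%, 34.9% and 35.8% in *spt4△*. Positions 2622 to 2741 held 31.7%, 33.2% and 32.2% in WT and 39.1%, 39.9% and 39.5% in *spt4△*. Neither pair overlapped (differences of −5.88 and 7.12 points, two-sided exact permutation p = 0.1 each, adjusted over 3 parts 0.15, n = 3 per strain). Positions 2742 to 2861 held 26.6% ± 1.04 in WT and 25.4% ± 0.714 in *spt4△*, which overlapped (exact permutation p = 0.3). Without the 5 highest positions of either strain, the first 2 differences shrank to −2.29 and 3.33 points. With medians over positions both turned sign, to 0.22 and −3.76 points (exact permutation p = 1 and 0.4), so they rested on high positions.

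The profiles of ITS1 were more alike within a strain than between strains. Spearman's rho over the 361 positions ran from 0.956 to 0.965 for pairs of WT libraries, from 0.765 to 0.795 for pairs of *spt4△* libraries and from 0.406 to 0.545 for the 9 mixed pairs. These are descriptions, since the positions of a library share its depth and base composition. Over the 18 bins, where counting error is smaller, the WT pairs had a rho of 0.930 to 0.967, the *spt4△* pairs 0.961 to 0.970 and the mixed pairs 0.508 to 0.622. Between strains, rho over positions was 0.420 to 0.530 in ITS2, but 0.8005 to 0.844 in 18S and 0.860 to 0.915 in 5.8S. Of the 36 highest ITS1 positions by strain median, 15 (41.7% of each list) were shared, while pairs of *spt4△* libraries shared 29 to 33 and pairs of WT libraries 27 to 30.

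The bases at the ends of transcripts were divided differently in every library of a strain from any of the other. U took 17.4%, 17.8% and 17.5% of ITS1 reads in WT and 35.5%, 31.9% and 30.6% in *spt4△*. G took 26.2%, 25.3% and 26.6% in WT and 16.01%, 17.3% and 17.0% in *spt4△*. A took 44.2% ± 0.353 in WT and 36.3% ± 2.03 in *spt4△*, and C took 12.2% ± 0.211 and 14.2% ± 1.22. For each of the 4 bases the strains did not overlap (exact permutation p = 0.1 each, the smallest possible, adjusted 0.1, n = 3 per strain).

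Single positions were then counted by their last base. Of the U positions, 42 (34.7%) were called higher and 5 (4.13%) lower, with a median log2 fold change of 0.55. Outside ITS1, 35.1% of U positions were higher and 14.8% lower (median 0.27), so the share of U positions called higher was near that of the rest of the gene. Of 73 G positions, 16.4% were higher and 23.3% lower (median −0.44), against 22.1% and 18.7% outside (median 0.078). Of 109 A positions, 21.1% were higher and 28.4% lower (median −0.40), against 16.5% and 32.5% outside (median −0.15). Of 57 C positions, 21.1% were higher and 5.26% lower (median 0.18), against 27.6% and 19.0% outside (median 0.14). The ITS1 medians kept their direction with TMM factors, median scaling, edgeR and DESeq2, but not their size. That of G ran from −0.54 to −0.15, that of A from −0.53 to −0.23 and that of C from 0.062 to 0.26, while that of U ran from 0.43 to 0.62.

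The same shares were then set against the rest of the gene. The share of U in ITS1 minus that outside was −7.76 ± 0.477 points in WT and 2.42 ± 1.64 in *spt4△*, a difference of 10.2 points (exact permutation p = 0.1, no overlap, n = 3 per strain). For G the share in ITS1 minus that outside was 4.21 ± 0.710 points in WT and −5.26 ± 0.529 in *spt4△* (exact permutation p = 0.1, no overlap, n = 3 per strain). Outside ITS1 itself, U also rose, from 25.3% ± 0.415 of reads in WT to 30.3% ± 0.926 in *spt4△*. A fell there from 34.2% ± 0.145 to 29.3% ± 1.14, and neither pair overlapped. The shifts of U and A were thus not particular to ITS1. Outside ITS1, G took 21.9% ± 0.904 of reads in WT and 22.0% ± 0.165 in *spt4△*, which overlapped. C took 18.6% ± 0.382 and 18.4% ± 0.422 there, which also overlapped. The peaks at 2617 and 2659, both ending on G, held 34.9% ± 1.32 of the G-ended ITS1 reads in WT and 13.8% ± 1.51 in *spt4△*. Without them, a split chosen after the values were seen, G took 18.7% ± 0.640 of the remaining ITS1 reads in WT and 14.8% ± 0.640 in *spt4△*.

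Read placement was checked on the sequence. The 30 bases that end at each of the 361 positions occurred in no place of the reference genome other than the 2 gene copies. The study's read filter looked for linker letters, CA right after the transcript and CU at the 11th and 12th base. No ITS1 position was followed by these letters in the gene itself, against 13 of 6858 positions in the whole gene.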

How the data were processed

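3 WT and 3 *spt4△* libraries, each a sample by its title, entered every comparison. The authors removed duplicate reads by their molecular identifiers, trimmed linkers with cutadapt 1.12, aligned to R64 with STAR 2.7.1a and counted read ends per position, adding both gene copies. The deposited values are in rpm, each count divided by the library total up to T1 (position 6739). The deposited p-value, the deposited ratio of strain means and the authors' other columns of means and spread were not used. Values are multiples of 1 step per library (99.97% of 41148 within 0.01 of a whole read, all in ITS1), which gave the reads.

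Positions were tested with limma 3.58.1 (R 4.3.3, eBayes with trend) on log2(rpm + 1), strain as the only term, over 6848 positions with a read, and bins of 20 likewise over 344 bins. Fold changes are *spt4△* over WT on that scale. The added 1 shrinks changes at low positions, but an *spt4△* library with no read can make a fall look larger. At position 2536 the log2 fold change was −2.95 in limma and −1.76 in edgeR. Calls use a Benjamini-Hochberg adjusted p under 0.05. Values with 1 number per library had two-sided exact permutation tests (scipy 1.17.1). Alternatives used edgeR 4.0.16 and DESeq2 1.42.0 on the reads, and the scripts were tested on simulated data. Positions named are the 5 highest by median in each strain, the 5 largest changes per direction among called, non-overlapping positions above the ITS1 median level, and the borders. The members, rules and lists were chosen with earlier results of these data known. Sequencing runs are not given in the sources used here.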

Additional observations from a re-analysis of the deposited data

How the results depend on the processing

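Alternatives changed 1 choice at a time, except that edgeR and DESeq2 changed the test, the input and, with TMM or size factors, the scaling together. Of 252 alternatives over the 18 positions with the highest occupancy or largest change, 249 kept their direction and side of the threshold, 3 lost the call (all at position 2536) and 0 turned direction. Of 122 over 9 ITS1 positions at the borders, 5 lost a call (all at 2504) and 6 gained one (at 2503, 2505 and 2857). Leaving out 1 library, ITS1 positions called numbered 65 to 96 higher and 36 to 71 lower, and bins 7 to 7 higher and 2 to 3 lower. Bins of 10 positions gave 17 higher and 12 lower, and bins of 40 gave 4 higher and 2 lower. Shares over the gene are not given for these settings, so a general change in calls cannot be told apart from one in ITS1. Scaling to the median position shifted the median over the gene by −0.13 on the log2 scale and gave 82 higher and 70 lower in ITS1. With a replicate block, 88 positions were higher and 63 lower. Same-numbered libraries did not deviate together (correlations 0.0114, 0.0212 and −0.0526), so no pairing by number was seen. Counting error in the shallow *spt4△* libraries could hide one, so this check cannot settle whether the numbers pair the samples.

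Log2 ratios between regions moved as follows. With medians over positions the rise into 5.8S was −0.40, ITS1 over ITS2 0.059 and ITS1 over ETS1 −0.55. Without 10 positions on each side of mature ends, ITS1 over ITS2 was 0.31, and without the 5 highest positions of each strain, ITS1 over ETS1 was −0.37. With 100 positions on each side, the drop from 18S was −0.098. Leaving out 1 library gave 0.22 to 0.41 for the ITS1 share, 0.12 to 0.30 for the drop, −0.82 to −0.59 for the rise, 0.42 to 0.51 against ITS2 and −0.49 to −0.43 against ETS1.

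The differences in the parts of ITS1 (2501 to 2621, 2622 to 2741, 2742 to 2861, in points) were 0.22, −3.76 and 3.54 with medians, −7.08 and 0.057 for the first and last without mature ends, and −2.29 and 3.33 for the first and middle without the highest positions. Leaving out 1 library gave −6.18 to −5.45, 6.78 to 7.54 and −1.61 to −0.63. Pearson's r on log2 values was on average 0.965 within WT and 0.753 within *spt4△*. The cause of each shift was not tested. Depth limits *spt4△* most, where a median ITS1 position had 4 to 7 reads.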

Other observations

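The U positions of ITS1 were also compared by the bases around them, a split chosen after the values were seen and therefore given without a test. Of 25 U positions that follow an A, 14 were called higher in *spt4△* and 0 lower, with a median log2 fold change of 1.05. Of 33 that follow C or G, 14 were higher and 2 lower (median 0.47), and of 63 that follow another U, 14 were higher and 3 lower (median 0.39). Outside ITS1, 139 of 430 U positions after an A were higher and 75 lower (median 0.21). After C or G, 324 of 803 were higher there and 119 lower (median 0.31), and after U, 167 of 560 were higher and 71 lower (median 0.25). The share called higher after C or G was thus near that outside (42.4% in ITS1, 40.3% outside). After U it was below that outside (22.2% in ITS1, 29.8% outside).

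The first U of the letters AUUU marks a small set within these, 8 positions in ITS1 (2507, 2515, 2528, 2667, 2795, 2813, 2832 and 2848). This set was also chosen after the values were seen. It holds 2667 and 2795, already named among the largest rises, so its values are a description and not a test. Of the 8, 7 were called higher and 0 lower, with a median log2 fold change of 2.82. The exception was 2515, with 3 to 8 reads per *spt4△* library and a log2 fold change of 1.05 (limma adjusted p = 0.0698). The median level over the 8 was 6.34 to 9.76 rpm in WT libraries and 48.7 to 60.2 rpm in *spt4△* libraries, without overlap. The site nearest 18S, 2507, held 6.39, 8.84 and 10.2 rpm in WT and 53.9, 50.1 and 101 rpm in *spt4△*. The site nearest 5.8S, 2848, held 10.1, 12.4 and 14.9 rpm in WT and 78.8, 95.7 and 97.6 rpm in *spt4△*. Outside ITS1 there were 46 such positions, of which 15 were higher and 12 lower, with a median of 0.013, and the difference between the sets was not tested.

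Base content around the called positions was compared as a description. The 20 bases from 30 to 11 before the transcript end were 60.7% A+U at positions called higher, 61.9% at those called lower and 62.6% at the rest. The 10 bases after the end were 60.0% A+U at positions called higher, 65.2% at those called lower and 65.1% at the rest. Across all 360 tested ITS1 positions neither content followed the log2 fold change. Spearman's rho was −0.019 for the A+U share of the bases before the end and 0.042 for the G+C share of those after it.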
